A study of Mus musculus with 34 samples.

Results

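The 7 genes of the NMDA receptor family, Grin1, Grin2a, Grin2b, Grin2c, Grin2d, Grin3a and Grin3b, were followed through the brain libraries of Myt1l heterozygous and wild-type mice. They were chosen by gene symbol, as the 7 of 18548 genes in the deposited table whose GENCODE M21 symbol names a subunit. NMDA receptors are tetrameric glutamate-gated channels that pass calcium once glutamate and a co-agonist are bound and depolarization has lifted the magnesium block. Grin1 encodes the obligatory GluN1 subunit, which binds glycine or D-serine. Grin2a to Grin2d encode the GluN2 subunits, which bind glutamate and set the kinetics of the channel, and Grin3a and Grin3b encode glycine-binding GluN3 subunits. In forebrain, Grin2b is prominent before birth and Grin2a rises after it, so the ratio of the pair is a common readout of synaptic maturation.

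RNA sequencing covered 34 libraries of male C57BL/6J mice at postnatal day 56. Prefrontal cortex (PFC) gave 5 libraries from Myt1l heterozygotes and 6 from wild type, hippocampus 5 and 6, and striatum 6 and 6. No treatment was given to either genotype. The labels speak of wild-type and knock-out pups and do not describe the Myt1l allele, and they do not say that libraries came from separate animals, so p-values measure the spread between these libraries, which may be technical. The Myt1l product is a neuronal transcription factor with zinc fingers of the MYT family.

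The 7 genes lie on 7 chromosomes of GRCm38. Grin1 (ENSMUSG00000026959) is at chr2:25291181-25319187 on the minus strand, Grin2a (ENSMUSG00000059003) at chr16:9567898-9995560 (minus) and Grin2b (ENSMUSG00000030209) at chr6:135713233-136173511 (minus). Grin2c (ENSMUSG00000020734) is at chr11:115249169-115267243 (minus) and Grin2d (ENSMUSG00000002771) at chr7:45831883-45878378 (minus). Grin3a (ENSMUSG00000039579) is at chr4:49661611-49845744 (minus) and Grin3b (ENSMUSG00000035745) at chr10:79970715-79977190 (plus). Values are for whole genes, so splice forms were not separated.

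Grin2a, Grin2b and Grin3a have no entry in the RefSeq promoter table. Upstream sequence is shown for the 3 of the other 4 members whose window holds no GENCODE exon, with a high, an intermediate and a near-zero level here. Each is a window that begins 250 bases upstream of the RefSeq start site, ends shortly before it and holds no GENCODE exon, and was read 5′ to 3′ along the gene from RefSeq GRCm38.p6. The windows are chr2:25319197-25319437 (minus) for Grin1, chr11:115267253-115267493 (minus) for Grin2c and chr10:79970474-79970714 (plus) for Grin3b. Capitals mark every match, on either strand, of GGGCGG, the GC box bound by Sp family factors, or of AAGTT, the core bound by zinc fingers of the MYT family.
Grin1: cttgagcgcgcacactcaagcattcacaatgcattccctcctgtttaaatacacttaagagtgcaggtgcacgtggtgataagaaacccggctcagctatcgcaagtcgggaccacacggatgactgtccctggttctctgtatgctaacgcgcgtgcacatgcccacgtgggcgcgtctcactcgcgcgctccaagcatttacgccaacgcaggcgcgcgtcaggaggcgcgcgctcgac
Grin2c: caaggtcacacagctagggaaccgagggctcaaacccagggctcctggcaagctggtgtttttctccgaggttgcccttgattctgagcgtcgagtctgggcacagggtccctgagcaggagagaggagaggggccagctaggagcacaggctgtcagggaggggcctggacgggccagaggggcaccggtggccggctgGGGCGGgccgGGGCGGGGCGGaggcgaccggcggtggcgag
Grin3b: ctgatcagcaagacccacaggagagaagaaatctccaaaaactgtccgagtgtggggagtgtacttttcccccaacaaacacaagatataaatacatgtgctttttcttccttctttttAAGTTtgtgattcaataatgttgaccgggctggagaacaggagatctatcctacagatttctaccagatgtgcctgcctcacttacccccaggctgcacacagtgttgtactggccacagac

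The Grin1 window had no match to either motif. It held 25 CpG dinucleotides, more than 90.4% of the 32851 windows of that length in the RefSeq table, whose median was 5, and its GC content was 58.5% against a median of 52.3%. The Grin2c window had 3 GC boxes, of which the last 2 overlap, with 15 CpG and 69.3% GC. The Grin3b window had 1 AAGTT, 2 CpG and 45.2% GC. GGGCGG occurs in 31.4% of all such windows and AAGTT in 34.5%, so a match is a description of these letters and not of a binding site. The table also holds Grin2d, whose window overlaps an exon and is not printed; it has 8 CpG and 1 AAGTT.

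The values are normalized read counts, which sum to 25786041 to 29798959 per library. The cortical excitatory markers (9 genes, such as Slc17a7) summed to 63084 to 69174 in the PFC libraries and 40372 to 46664 in hippocampus. They fell into separate ranges in striatum, at 13694 to 18719 in 5 libraries (heterozygote replicates 1 and 2, wild-type replicates 1, 4 and 5) and at 6663 to 7879 in the other 7. The markers of striatal projection neurons, such as Drd1, were at 67105 to 101674 in striatum and at no more than 15714 elsewhere, and the hippocampal list was highest in hippocampus, as the labels name the regions. Choroid plexus markers such as Ttr varied from 1332 to 88935 among the striatum libraries and from 2112 to 86180 among those of hippocampus. The column names carry a code for each library. Of the 12 codes, 10 recur in all 3 regions and 2 in 2 regions, so region comparisons reuse codes. The labels do not say whether a code marks an animal. Only 1 code, 31-67M, stands on both genotypes: on wild-type PFC replicate 6 and the first heterozygote replicates of hippocampus and striatum. Myt1l itself, the gene named by the genotype, had means of 6820, 6896 and 8162 normalized counts in heterozygote PFC, hippocampus and striatum and of 6650, 6216 and 7675 in wild type, so no region had a lower mean in the heterozygotes. The genotype labels were followed, and the RNA level is no check of them.

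The first comparison asked how the subunits are distributed over the regions in wild type, where 6 libraries stand for each region. Grin3b was too low to test, and the other 6 members were compared with limma on log2(value + 1). Between PFC and hippocampus 4 of the 6 passed an adjusted p of 0.05, beside 46.8% of all 17017 genes tested; 2 were higher in PFC, beside 22.9% of genes, and 2 lower, beside 23.9%. Between PFC and striatum 6 of 6 passed, beside 57%, with 4 higher in PFC, beside 27.8%, and 2 lower, beside 29.2%. Between hippocampus and striatum 5 of 6 passed, beside 48%, with 3 higher in hippocampus, beside 23.9%, and 2 lower, beside 24.1%. The median size of the members' log2 differences was 0.24, 0.63 and 0.71 in those comparisons, where that of all genes was 0.22, 0.28 and 0.23. The members did not move as a block: Grin1, Grin2a, Grin2b and Grin2c were lower in striatum than in PFC, and Grin2d and Grin3a were higher. The 3 comparisons share libraries, so they are not independent of one another.

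**Figure D1:**
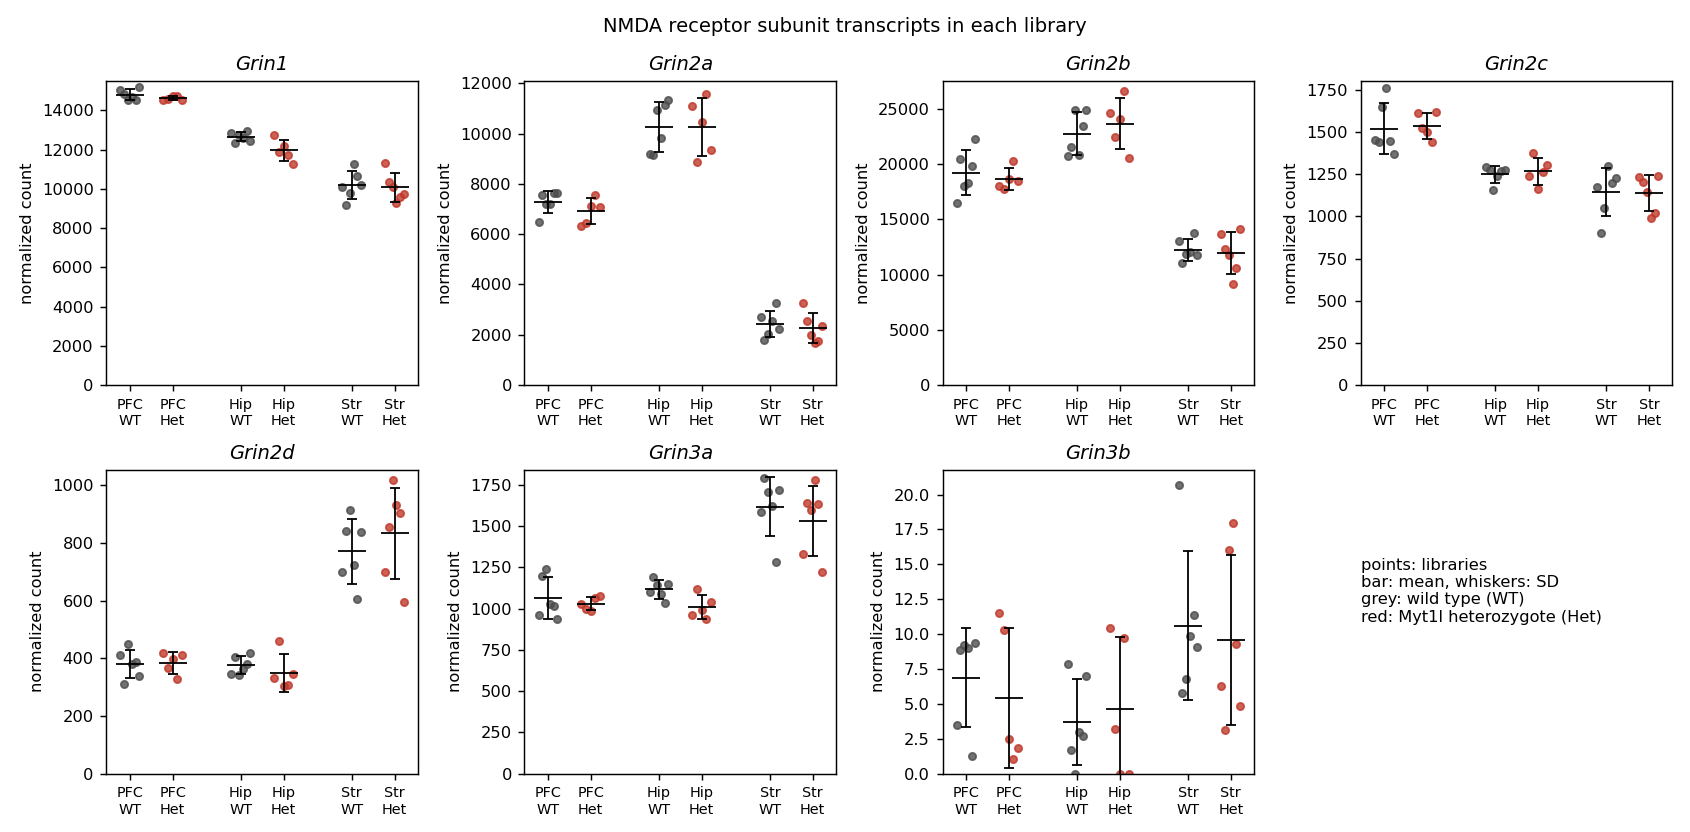
Normalized counts of the 7 NMDA receptor subunit genes (y axis, linear, from 0) in each library, by region and genotype (x axis); points are libraries, bars the group mean and whiskers the SD. Grin1, Grin2a and Grin2b are lowest in striatum, Grin2d and Grin3a highest there, and the ranges of the genotypes overlap for each gene in each region.

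Grin1, the subunit that every NMDA receptor carries, was highest in PFC. Its wild-type libraries had a lowest, median and highest value of 14500, 14760 and 15191 normalized counts in PFC, 12353, 12657 and 12967 in hippocampus, and 9197, 10154 and 11248 in striatum. The ranges of the regions did not overlap. The mean was 14796 ± 282 (SD, n = 6) in PFC, 12650 ± 237 (SD, n = 6) in hippocampus and 10198 ± 706 (SD, n = 6) in striatum. PFC exceeded hippocampus by 0.23 on the log2 scale (SE 0.04; limma adjusted p = 2.5e-05) and striatum by 0.54 (SE 0.04; limma adjusted p = 2.8e-11), and hippocampus exceeded striatum by 0.31 (SE 0.04; limma adjusted p = 2.2e-07). The markers that neurons share (6 genes, such as Snap25 and Map2) followed the same order, with medians of 211238, 162268 and 130812 summed normalized counts in wild type, while oligodendrocyte markers (8 genes, such as Mbp) had medians of 135490, 166340 and 257391. In bulk tissue, fewer cells of a type and less RNA per cell cannot be told apart, and the part of these markers in the result was not tested.

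Grin2a, the subunit of mature fast-decaying receptors, had the widest range among the members that were tested. Its wild-type libraries spanned 6493 to 7635 normalized counts in PFC with a median of 7364, 9142 to 11350 in hippocampus with a median of 10395, and 1798 to 3247 in striatum with a median of 2386. No striatum library reached the lowest library of another region. The mean of 10270 ± 997 (SD, n = 6) in hippocampus was 4.3-fold that of striatum on the fitted scale, 2424 ± 519 (SD, n = 6), with a log2 difference of 2.10 (SE 0.10; limma adjusted p = 2.1e-12). PFC, at 7278 ± 436 (SD, n = 6), lay 1.61 above striatum (SE 0.10; limma adjusted p = 1.1e-10) and differed from hippocampus by -0.49 (SE 0.10; limma adjusted p = 0.00066).

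Grin2b, the subunit with slow decay that binds CaMKII, had the same order of regions with smaller steps. Its lowest, median and highest wild-type values were 16482, 19030 and 22275 normalized counts in PFC, 20732, 22476 and 24932 in hippocampus, and 11019, 11931 and 13720 in striatum. Striatum stood below the other regions without overlap, and the ranges of PFC and hippocampus overlapped. Means were 19219 ± 2049 (SD, n = 6), 22727 ± 1949 (SD, n = 6) and 12230 ± 971 (SD, n = 6). Hippocampus exceeded striatum by 0.89 (SE 0.07; limma adjusted p = 3.3e-10), PFC exceeded striatum by 0.65 (SE 0.07; limma adjusted p = 4e-08), and PFC minus hippocampus was -0.25 (SE 0.07; limma adjusted p = 0.0048).

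Grin2c, known from cerebellar granule cells and from astrocytes, was highest in PFC. Wild-type libraries ranged from 1371 to 1760 normalized counts in PFC (median 1449), from 1155 to 1291 in hippocampus (median 1270) and from 904 to 1301 in striatum (median 1187). The PFC range lay above the others, and the last 2 overlapped. PFC was 0.28 above hippocampus (SE 0.07; limma adjusted p = 0.00321) and 0.42 above striatum (SE 0.07; limma adjusted p = 4e-05). The step from hippocampus to striatum, 0.14 (SE 0.07), did not pass (limma adjusted p = 0.125; 95% interval -0.01 to 0.29). It was 0.24 (SE 0.08; limma adjusted p = 0.0226) without the 5 striatum libraries high in cortical markers, a setting chosen after seeing the data. Of wild-type striatum that setting kept only replicates 2, 3 and 6, at 904, 1052 and 1224 normalized counts, so its p rests on that choice. The astrocyte markers (8 genes) had wild-type medians of 59312, 64895 and 57493 in PFC, hippocampus and striatum, another order than that of Grin2c. Glul, an astrocyte gene outside that list and the gene nearest to Grin2c in pattern, had means of 50700, 45132 and 41116. The part of astrocytes in the Grin2c level was not tested.

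Grin2d, a subunit of interneurons and of subcortical nuclei, was the GluN2 gene that was highest in striatum. The 6 wild-type striatum libraries lay at 607 to 916 normalized counts (median 780), above every library of PFC (312 to 450, median 384) and of hippocampus (343 to 419, median 372). Means were 771 ± 114 (SD, n = 6), 380 ± 49.3 (SD, n = 6) and 376 ± 30.8 (SD, n = 6). PFC minus striatum was -1.01 (SE 0.10; limma adjusted p = 5.8e-09) and hippocampus minus striatum -1.02 (SE 0.10; limma adjusted p = 6.2e-09), a fold of about 2.02 and 2.03. PFC and hippocampus differed by 0.01 (SE 0.10; limma adjusted p = 0.947; 95% interval -0.19 to 0.21). The interneuron markers (9 genes, such as Gad1 and Sst, of which Gad1, Gad2 and Slc32a1 are also made by striatal projection neurons) had wild-type medians of 43835 in striatum, 23782 in PFC and 21207 in hippocampus. Their mean log2 level did not follow that order, at 10.74 to 10.99 in wild-type striatum, 10.91 to 11.05 in PFC and 10.40 to 10.56 in hippocampus, so the sum rests on the more abundant genes of the list. The thalamus markers (7 genes) summed to 7620 to 12170 in wild-type striatum, 3564 to 4147 in PFC and 3066 to 4452 in hippocampus. Among all striatum libraries, Grin2d was lowest at 596 and 607, in heterozygote replicate 6 and wild-type replicate 5, where those sums were 7622 and 7620. It was highest at 1018 in heterozygote replicate 3, where the sum was 13923. The part of either marker list in the result was not tested.

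Grin3a, which lowers calcium flux through the receptors it joins and is most abundant in young animals, was also highest in striatum. Its wild-type libraries lay at 1280 to 1790 normalized counts there (median 1664), at 935 to 1242 in PFC (median 1021) and at 1031 to 1193 in hippocampus (median 1119). No striatum library fell into the range of another region. Means were 1617 ± 180 (SD, n = 6), 1063 ± 127 (SD, n = 6) and 1116 ± 56.7 (SD, n = 6), so that PFC minus striatum was -0.60 (SE 0.08; limma adjusted p = 4.7e-07) and hippocampus minus striatum -0.53 (SE 0.08; limma adjusted p = 4.2e-06). PFC minus hippocampus was -0.08 (SE 0.08; limma adjusted p = 0.436).

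Grin3b, whose product is known mainly from motor neurons, was near the bottom of the table. Its values ran from 1.3 to 9.37 normalized counts in wild-type PFC, from 0 to 7.83 in hippocampus and from 5.79 to 20.7 in striatum, and it was listed at 0 in 1 wild-type and 2 heterozygote hippocampus libraries. Fitted without a filter on low values, hippocampus minus striatum was -1.52 (SE 0.50; limma adjusted p = 0.0159) in wild type and -1.38 (SE 0.70; limma adjusted p = 0.121) in heterozygotes. The other region differences of Grin3b had adjusted p of 0.163 to 0.63. Read totals from before the scaling are not known, so no counting interval was set on such low values.

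**Figure D2:**
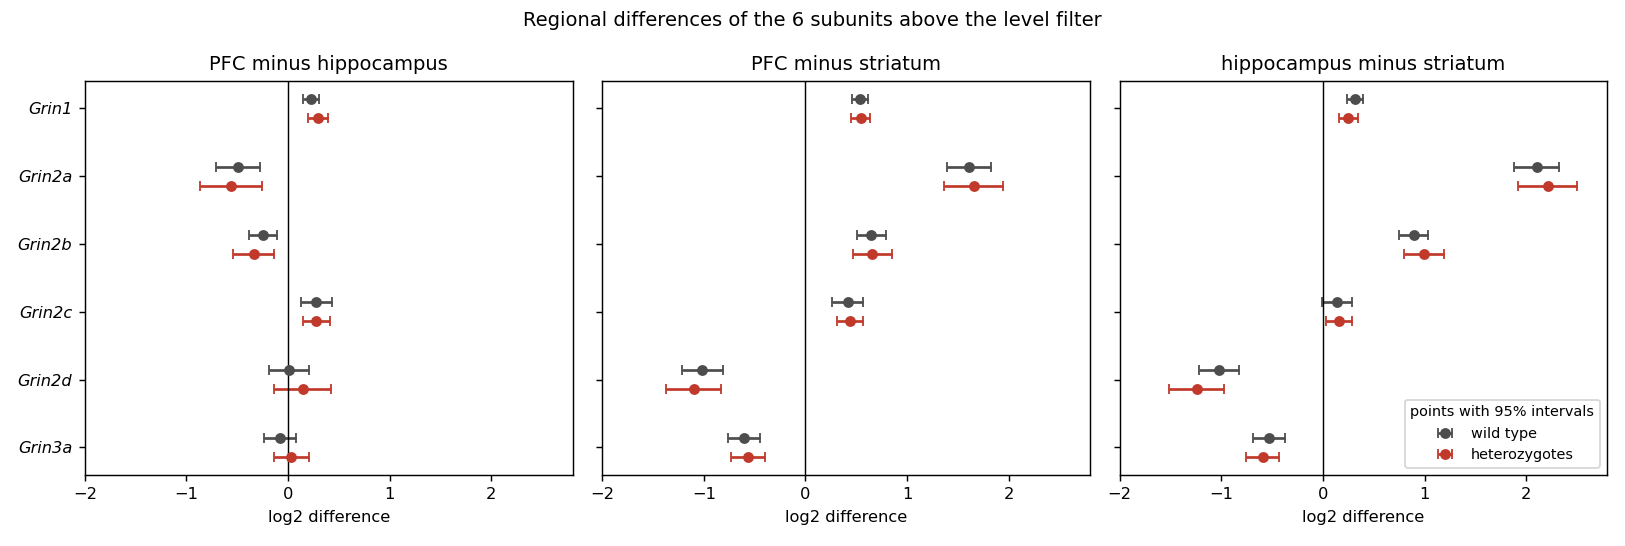
Log2 differences between regions (x axis) of the 6 members tested (y axis), in wild type and in heterozygotes; points are limma estimates with 95% intervals and the vertical line marks no difference. Grin2a shows the longest step, 2.10 and 2.21 between hippocampus and striatum, and Grin2d and Grin3a lie to the left of 0 in both comparisons with striatum.

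The heterozygote libraries give the same comparisons in samples that the wild-type fits do not use. In them 4 of 6 members passed between PFC and hippocampus, beside 43.6% of 17080 genes tested, with 2 higher in PFC (21.1% of genes) and 2 lower (22.5%). Between PFC and striatum 6 of 6 passed, beside 56%, with 4 higher in PFC (27.3%) and 2 lower (28.8%), and between hippocampus and striatum 6 of 6, beside 46.3%, with 4 higher in hippocampus (23.2%) and 2 lower (23.2%). Grin2a was at 11091, 8886, 10447, 11590 and 9329 normalized counts in the 5 hippocampus libraries and at 6322, 6450, 7128, 7560 and 7066 in the 5 of PFC, and the 6 of striatum ran from 1690 to 3280 (median 2153). These ranges do not overlap. The Grin2a differences were -0.56 (SE 0.14) for PFC minus hippocampus, 1.65 (SE 0.14) for PFC minus striatum and 2.21 (SE 0.14) for hippocampus minus striatum. For Grin2d the last 2 were -1.10 (SE 0.13) and -1.24 (SE 0.13), and for Grin3a -0.56 (SE 0.08) and -0.59 (SE 0.08). Grin2c passed between hippocampus and striatum at 0.16 (SE 0.06; limma adjusted p = 0.0419). That call was lost without hippocampus heterozygote replicate 1, 2, 4 or 5 or striatum heterozygote replicate 3, 4 or 5, with equal library totals (0.10), without the trend and robust options, and when the column code was not treated as a block. Groups without overlap were found for 3, 6 and 5 members in wild type, beside 29%, 35.8% and 29.8% of all genes, and for 4, 6 and 4 in heterozygotes, beside 31.4%, 38.2% and 29.5%.

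The scale of the deposited values bears on these region differences. Of the genes called in wild type, 48.9%, 48.9% and 49.8% were higher in the first region in the 3 comparisons. With each library scaled to the same total, those shares were 33.3%, 30.3% and 40.2%, and the median of all genes moved from -0.01 to -0.10, -0.15 and -0.06. Under that scaling the number of members called stayed at 4, 6 and 5, with smaller values for members higher in PFC. Grin1 between PFC and hippocampus went from 0.23 to 0.14 in wild type. Grin2c between PFC and striatum went from 0.42 to 0.27 in wild type and from 0.44 to 0.29 in heterozygotes, and between PFC and hippocampus in heterozygotes from 0.28 to 0.18. The PFC minus hippocampus difference of Grin2d, which was not called, turned from 0.01 to -0.08.

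Levels of different genes were compared per kilobase of exon, with the union of the GENCODE M21 exons as the length (9.7 kb for Grin1, 17.9 for Grin2a, 24.8 for Grin2b, 5.04 for Grin2c, 6.66 for Grin2d, 12.3 for Grin3a and 3.3 for Grin3b). In wild-type PFC the order of the mean levels was Grin1 at 1525 normalized counts per kb, Grin2b at 774, Grin2a at 406, Grin2c at 302, Grin3a at 86.6, Grin2d at 57.1 and Grin3b at 2.09. The ranges of no neighbours in that order overlapped. Hippocampus kept the order, with Grin1 at 1304, Grin2b at 915, Grin2a at 573, Grin2c at 248, Grin3a at 90.9, Grin2d at 56.5 and Grin3b at 1.13.

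Striatum had another order of levels per kb. There Grin1 stood at 1051, Grin2b at 492 and Grin2c at 227 (range 179 to 258), followed by Grin2a at 135 (100 to 181), Grin3a at 132 (104 to 146), Grin2d at 116 (91.1 to 138) and Grin3b at 3.22. Grin2a overlapped Grin2c at the edge of its range, and Grin2a, Grin3a and Grin2d overlapped one another, so their order is not resolved. The order depends on the length used. Per kb of the longest coding sequence, Grin2a (552) and Grin3a (475) lay above Grin2c (307) in striatum, and in hippocampus Grin2b (5112) lay above Grin1 (4397).

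Of the summed GluN2 levels per kb, Grin2b took 50.2% ± 2.81 (SD, n = 6) in wild-type PFC, 51% ± 1.14 (SD, n = 6) in hippocampus and 50.8% ± 1.53 (SD, n = 6) in striatum. The other shares varied more between the regions. Grin2a held 26.4% ± 0.47, 31.9% ± 1.12 and 13.8% ± 1.98, and Grin2d 3.74% ± 0.641, 3.16% ± 0.281 and 12.1% ± 2.53. Grin2c held 19.7% ± 2.36, 13.9% ± 1.3 and 23.3% ± 1.86. The Grin2b share was 47.5%, 47.9% and 48.5% by transcript length and 66.6%, 64.8% and 72.4% by coding length, so its level and its evenness over the regions depend on the length used. The summed GluN2 level per Grin1 level was 1.01 ± 0.0613 in PFC, 1.37 ± 0.0991 in hippocampus and 0.923 ± 0.0437 in striatum (SD, n = 6), and hippocampus was also highest by transcript length (0.666 against 0.485 and 0.44) and by coding length (1.79, with striatum lowest at 1.07).

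The Grin2a to Grin2b ratio was taken within each library, where the library's scaling cancels. In wild type it was 0.38 ± 0.0212 (SD, n = 6) in PFC, with a range of 0.343 to 0.399. It was 0.452 ± 0.0198 (SD, n = 6) in hippocampus, from 0.424 to 0.476, and 0.197 ± 0.0273 (SD, n = 6) in striatum, from 0.163 to 0.237. The 3 ranges did not overlap. On the log2 scale the ratio differed by -0.25 between PFC and hippocampus, by 0.96 between PFC and striatum and by 1.21 between hippocampus and striatum. Each had a 2-sided exact permutation p of 0.00216, the smallest that 6 against 6 libraries allow, and 0.0026 after adjustment over the 6 region comparisons. The permutation did not use the column codes, which recur between regions, and the form paired by code is given below. In heterozygotes the differences were -0.23 (exact permutation p = 0.00794, the smallest possible), 0.99 and 1.22 (exact permutation p = 0.00216 each), again with no overlap between regions. These are ratios of normalized counts; per kb of exon the wild-type means were 0.527, 0.626 and 0.272.

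**Figure D3:**
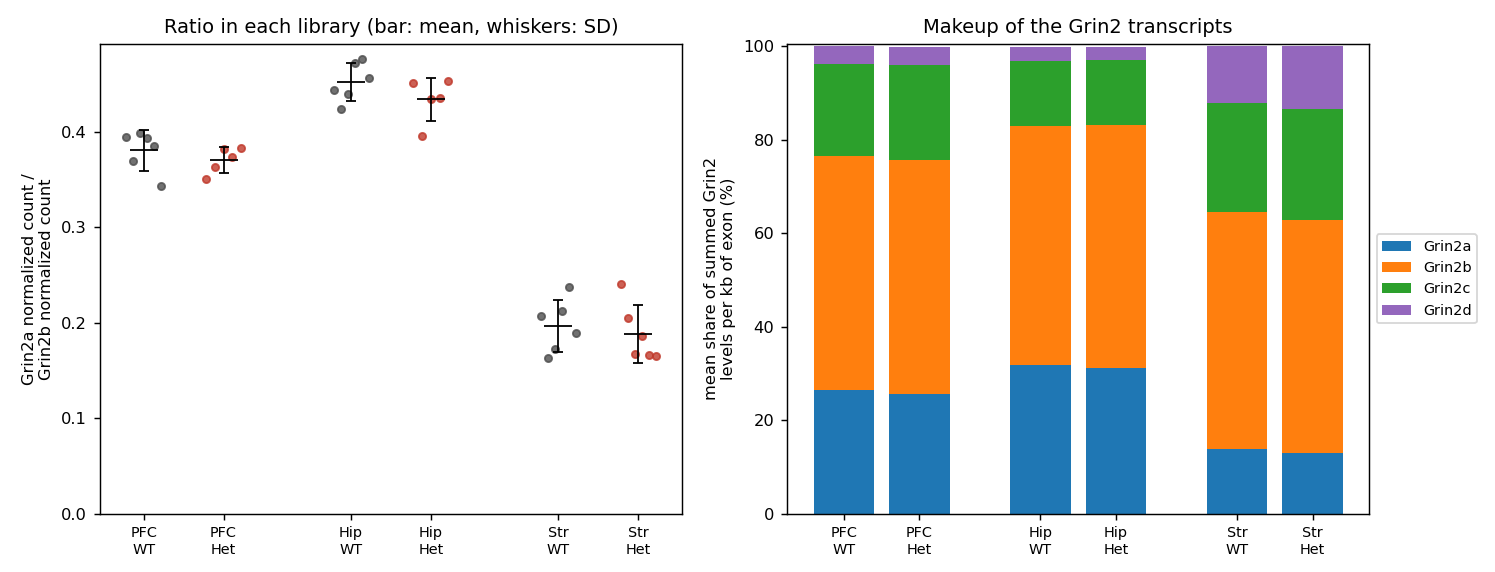
Left, the ratio of Grin2a to Grin2b normalized counts (y axis, linear, from 0) in each library by region and genotype, with the group mean and SD. Right, the mean share of each GluN2 gene in their summed levels per kb of exon (%). The ratio is highest in hippocampus and lowest in striatum in both genotypes, and Grin2b keeps near 50% of the bar while in striatum the share of Grin2a is smaller and those of Grin2c and Grin2d are larger.

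Among the striatum libraries, Grin2a and the ratio moved with the cortical excitatory markers. The 5 libraries high in those markers had Grin2a at 2528 to 3280 normalized counts and a ratio of 0.205 to 0.241, and the other 7 had 1690 to 2333 and 0.163 to 0.189. Neither pair of ranges overlapped. Slc17a7, the vesicular glutamate transporter of cortical neurons, was at 5294 to 8530 in the 5 and at 337 to 1187 in the other 7. The markers that neurons share were also higher in the 5 (133036 to 142439 against 118156 to 125717), and the summed interneuron markers lower (40922 to 43586 against 44084 to 47373), while the mean log2 level of the interneuron list overlapped (10.954 to 10.997 against 10.743 to 11.023).

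The other members overlapped between those libraries. Grin1 lay at 10102 to 11339 against 9197 to 10206, Grin2b at 12028 to 13720 against 9105 to 14129, and Grin2c at 1174 to 1301 against 904 to 1236. Grin2d lay at 607 to 857 against 596 to 1018, and Grin3a at 1280 to 1641 against 1219 to 1790. With these 5 libraries left out, the differences from striatum were larger. For Grin2a and the ratio this follows from the higher values of the 5. Hippocampus minus striatum for Grin2a became 2.35 (SE 0.07) in wild type and 2.41 (SE 0.09) in heterozygotes, and for the log2 ratio 1.37 (exact permutation p = 0.0119) and 1.34 (exact permutation p = 0.00794). The members called were 6 of 6 in each comparison with striatum. No test was made between the 5 libraries and the other 7, since the split was seen in the data. The p-values and calls without the 5 rest on that split. The part of the cortical markers in the level of Grin2a was not tested.

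**Figure D4:**
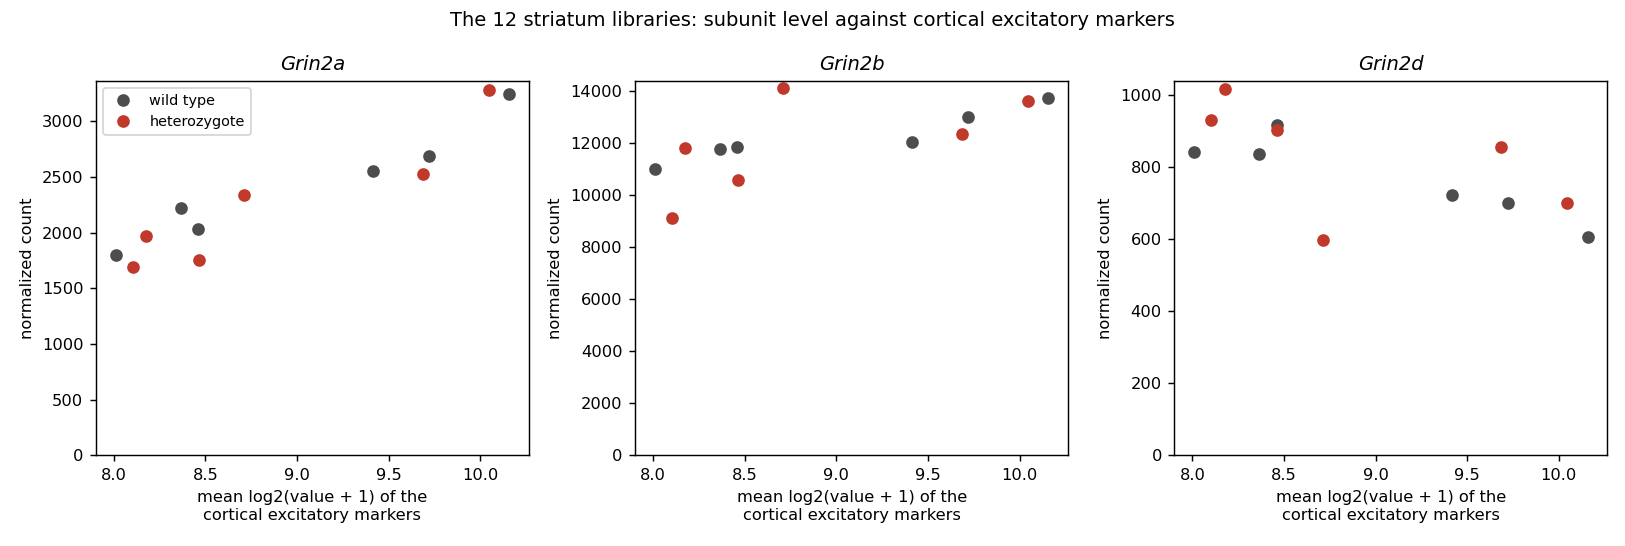
Normalized counts (y axis, linear, from 0) of Grin2a, Grin2b and Grin2d in the 12 striatum libraries against the mean log2(value + 1) of the 9 cortical excitatory markers (x axis); each point is a library, coloured by genotype. The 5 libraries on the right have Grin2a at 2528 to 3280, above the 7 on the left, and the points of Grin2b and Grin2d overlap between the sides.

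The second comparison asked whether the subunits differ between Myt1l heterozygotes and wild type within a region. No member passed in any region: 0 of 6 in PFC and hippocampus and 0 of 7 in striatum by limma, beside 0% of 16667, 16820 and 17054 genes tested. At an unadjusted p under 0.05 there were 833, 1145 and 1004 genes, and 0, 2 and 0 members. The members' log2 differences, heterozygote minus wild type, ran from -0.08 to 0.02 in PFC, from -0.15 to 0.06 in hippocampus and from -0.23 to 0.10 in striatum. The -0.23 is Grin3b, tested in striatum only, with means of 9.6 and 10.6 near the filter. Next lowest there was Grin2a at -0.11. The median size of the members' differences, with Grin3b in striatum, was 0.03, 0.07 and 0.08, and that of all genes 0.06, 0.07 and 0.07. In none of the regions did the libraries of the genotypes stand apart for a member, where 0.462%, 0.678% and 0.399% of all genes did.

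The GluN1 and GluN3A genes in hippocampus had the smallest p. Grin1 was at 12719, 11886, 12197, 11696 and 11281 normalized counts in the 5 heterozygote libraries, 11956 ± 541 (SD, n = 5), and at 12650 ± 237 (SD, n = 6) in wild type. The first heterozygote library lay above the wild-type mean and the other 4 below the lowest wild-type library. The ranges overlapped through that first library, which carries the code 31-67M that also stands on a wild-type PFC library. The log2 difference was -0.08 (SE 0.03; 95% interval -0.15 to -0.01; limma adjusted p = 0.719). Grin3a was at 961, 1117, 991, 935 and 1037 in the heterozygotes, 1008 ± 72 (SD, n = 5), against 1116 ± 56.7 (SD, n = 6), with 4 of 5 below the wild-type mean, and its difference was -0.15 (SE 0.06; 95% interval -0.27 to -0.03; limma adjusted p = 0.719). Neither is a call.

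Grin2a and Grin2b had means close to those of wild type in each region. Grin2a was at 6905 ± 513 (SD, n = 5) in heterozygote PFC, 10269 ± 1146 (SD, n = 5) in hippocampus and 2260 ± 597 (SD, n = 6) in striatum, with log2 differences of -0.08 (SE 0.05), -0.00 (SE 0.08) and -0.11 (SE 0.17). Grin2b was at 18621 ± 978 (SD, n = 5), 23662 ± 2289 (SD, n = 5) and 11931 ± 1881 (SD, n = 6), with differences of -0.04 (SE 0.06), 0.06 (SE 0.07) and -0.05 (SE 0.09). The 5 PFC heterozygote values of Grin2b were 17986, 17747, 18679, 20241 and 18452, and those of hippocampus 24616, 22430, 24048, 26638 and 20576. The ranges of the genotypes overlapped in each region for both genes.

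The remaining members had differences of 0.02 (SE 0.06), 0.02 (SE 0.05) and 0.00 (SE 0.09) for Grin2c in PFC, hippocampus and striatum. For Grin2d they were 0.02 (SE 0.10), -0.12 (SE 0.10) and 0.10 (SE 0.13), and the last turned to -0.03 (SE 0.16) without the 5 striatum libraries high in cortical markers. Grin3a differed by -0.04 (SE 0.07) in PFC and -0.08 (SE 0.10) in striatum, and Grin3b by -0.23 (SE 0.42) in striatum. The 95% intervals of the members reached from -0.19 to 0.23 in PFC and from -0.34 to 0.20 in hippocampus. In striatum they reached from -0.49 to 0.38, apart from Grin3b, whose interval was -1.12 to 0.65. These bounds are the widest over the members, and single members had narrower intervals, such as -0.08 to 0.04 for Grin1 in PFC.

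**Figure D5:**
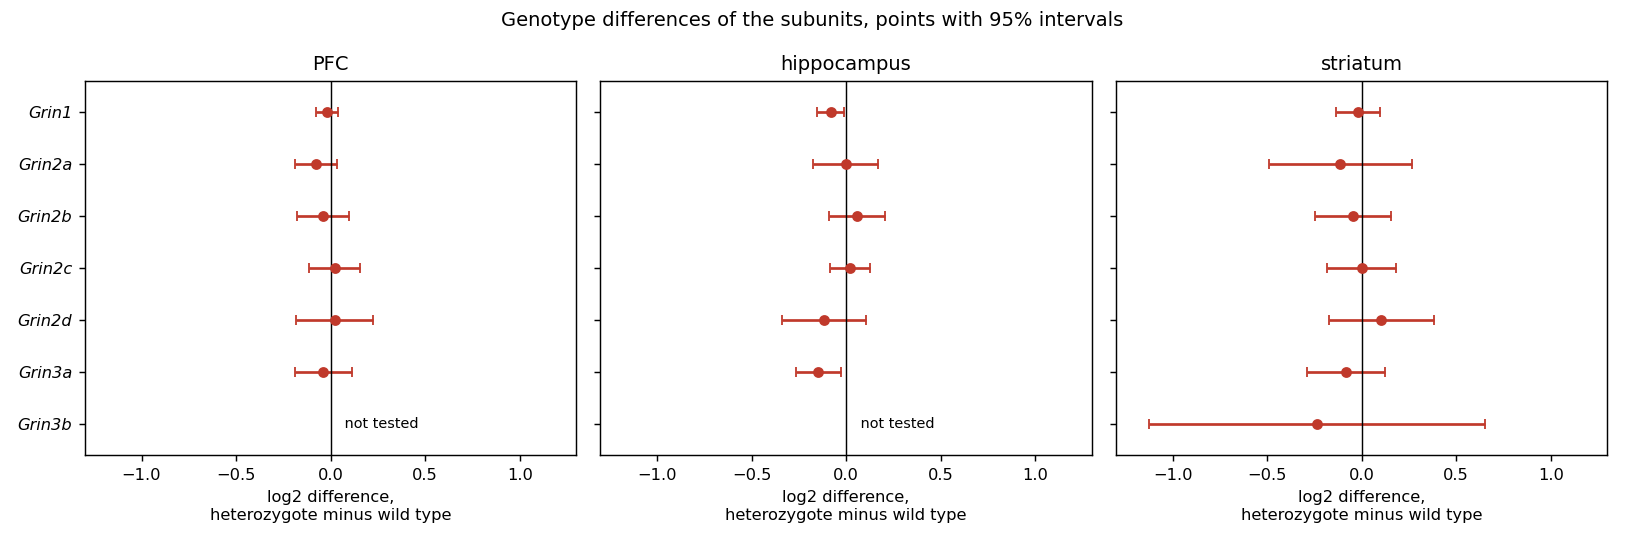
Log2 differences, heterozygote minus wild type (x axis), of the 7 members (y axis) in PFC, hippocampus and striatum; points are limma estimates with 95% intervals, and Grin3b was tested in striatum only. The points lie between -0.23 and 0.10, and the intervals include 0 except those of Grin1 and Grin3a in hippocampus, which do not pass after adjustment.

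The Grin2a to Grin2b ratio of the heterozygotes was 0.371 ± 0.0132 (SD, n = 5) in PFC, 0.434 ± 0.0228 (SD, n = 5) in hippocampus and 0.188 ± 0.0301 (SD, n = 6) in striatum. The PFC libraries had 0.351, 0.363, 0.382, 0.374 and 0.383 and the hippocampus libraries 0.451, 0.396, 0.434, 0.435 and 0.453, and those of striatum ran from 0.165 to 0.241. Each range overlapped that of wild type. The log2 ratio differed from wild type by -0.04 (exact permutation p = 0.418), -0.06 (exact permutation p = 0.203) and -0.07 (exact permutation p = 0.565), and the adjusted p over the 3 regions was 0.565 for each.

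Whether the genotype difference itself varies from region to region was tested in 1 model of all 34 libraries. By limma 0 of 6 members passed for any pair of regions, beside 0% of 17051 genes, with 698, 668 and 687 genes and 0 members at an unadjusted p under 0.05. The smallest p of a member was 0.187, for Grin2d in hippocampus against striatum (-0.22, SE 0.16). Averaged over the regions, 0 of 6 members passed, beside 0.0938% of genes (0.0469% higher and 0.0469% lower in heterozygotes), and 1598 genes and 0 members had an unadjusted p under 0.05. Grin3a had the smallest p of the members there (-0.09, SE 0.05; limma adjusted p = 0.592), followed by Grin1 (-0.04, SE 0.02; limma adjusted p = 0.655).

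Genes that act with the receptor were read from 5 lists: scaffolds and partners (22 genes), kinases and phosphatases (21), co-agonist supply and transport (15, of which 13 were tested), glutamate uptake and supply (10), and signalling and transcription factors (22). In the heterozygotes 0 genes of any list passed by limma in any region or in the average. The smallest p per list belonged in PFC to Gipc1 (-0.09, SE 0.05), Src (-0.09, SE 0.05), Slc1a5 (0.39, SE 0.19), Glul (0.05, SE 0.04) and Rest (0.22, SE 0.10). In hippocampus it belonged to Apba1 (-0.06, SE 0.03), Prkaca (-0.10, SE 0.03), Shmt1 (-0.70, SE 0.21), Glul (-0.08, SE 0.04) and Sp4 (-0.18, SE 0.06), and in striatum to Dlg1 (0.13, SE 0.06), Ppp3cb (-0.11, SE 0.05), Ddo (0.35, SE 0.13), Slc1a1 (-0.04, SE 0.05) and Ezh2 (0.20, SE 0.11). In the average over regions it belonged to Lin7b (-0.14, SE 0.05), Ppp3cb (-0.06, SE 0.03), Slc7a10 (0.09, SE 0.05), Slc17a6 (0.09, SE 0.13) and Nos1 (0.11, SE 0.05). None of these passed, with limma adjusted p of 0.305 to 0.978.

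Scaffold genes were mostly higher in PFC of wild type. Of the 22, 15 were higher and 2 lower than in hippocampus (list median 0.41), 18 higher and 2 lower than in striatum (0.55), and 12 were higher and 7 lower in hippocampus than in striatum (0.23), where the median of all genes was -0.01. Of all genes, 22.9% were higher and 23.9% lower in the first of these comparisons, 27.8% and 29.2% in the second, and 23.9% and 24.1% in the last, and the counts of the other lists are to be read against the same shares. The summed markers that neurons share had wild-type medians of 211238 in PFC, 162268 in hippocampus and 130812 in striatum. Their part in the scaffold differences was not tested. In PFC the postsynaptic scaffold Shank1 reached 22572 ± 1673 normalized counts (SD, n = 6), against 6813 ± 743 (SD, n = 6) in striatum, a difference of 1.73 (SE 0.06; limma adjusted p = 1e-15). Dlgap3, which links Shank to PSD-95, was 0.89 (SE 0.07) higher in PFC than in hippocampus, and its relative Dlgap1 was 1.69 (SE 0.08) higher in hippocampus than in striatum. Actn2, an actin-binding partner of the GluN1 tail, had the striatal pattern of Grin2d, at 1239 ± 189 (SD, n = 6) in striatum against 317 ± 38.6 (SD, n = 6) in PFC (-1.96, SE 0.10) and 364 ± 43 (SD, n = 6) in hippocampus (-1.76, SE 0.10). Lin7c was lower in PFC than in hippocampus (-0.68, SE 0.05).

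Of the 21 kinases and phosphatases, 7 were higher and 7 lower in PFC than in hippocampus (median 0.02), 10 higher and 5 lower than in striatum (0.12), and 12 were higher and 3 lower in hippocampus than in striatum (0.21), where 46.8%, 57% and 48% of all genes were called in either direction. Camk2a, the kinase subunit that docks on GluN2B, was at 115554 ± 5800 (SD, n = 6) in PFC and 34231 ± 6152 (SD, n = 6) in striatum (1.77, SE 0.08). Ptpn5, the striatal-enriched phosphatase STEP that acts on GluN2B, ran the other way, at 11184 ± 741 (SD, n = 6) in striatum, 5002 ± 310 (SD, n = 6) in PFC and 3020 ± 81 (SD, n = 6) in hippocampus, with differences of -1.16 (SE 0.04) and -1.89 (SE 0.04). Camk2g was 0.79 (SE 0.05) higher and Camk2b 0.83 lower in PFC than in hippocampus.

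Genes of co-agonist and glutamate handling had mixed directions. Among the 13 co-agonist genes tested, 1 was higher and 5 lower in PFC than in hippocampus, 4 and 5 than in striatum, and 5 higher and 4 lower in hippocampus than in striatum, with medians of -0.17, -0.13 and 0.01. The 6 called between PFC and hippocampus are a share near the 46.8% of all genes, so nothing about the list is read from that count; the other shares over all genes were 57% and 48%. Slc6a9, the glycine transporter GlyT1, was higher in striatum than in PFC (-1.06, SE 0.09) and hippocampus (-0.84, SE 0.09). Shmt1, which makes glycine from serine, was at 108 ± 30.7 (SD, n = 6) in hippocampus, 27.6 ± 14.4 (SD, n = 6) in PFC and 34.2 ± 15.3 (SD, n = 6) in striatum. Slc1a4, a serine transporter, was 0.18 (SE 0.05) above hippocampus in PFC, and Gldc, which cleaves glycine, 0.50 (SE 0.07) above striatum.

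Of the 10 glutamate genes, 2 were higher and 4 lower in PFC than in hippocampus, 6 and 3 than in striatum, and 5 higher and 2 lower in hippocampus than in striatum, with medians of -0.02, 0.14 and 0.10, beside 46.8%, 57% and 48% of all genes called. The vesicular transporters had the widest differences of the list: Slc17a7, which is also one of the cortical markers above, was 4.25 (SE 0.63) above striatum in PFC and 3.95 (SE 0.63) in hippocampus. Slc17a6, a transporter of thalamic neurons and a member of the thalamus marker list, was at 2705 ± 783 (SD, n = 6) in striatum against 340 ± 37.2 (SD, n = 6) in PFC and 540 ± 145 (SD, n = 6) in hippocampus. The thalamus markers (7 genes) summed to 7620 to 12170 in wild-type striatum and 3564 to 4147 in wild-type PFC, and their part in the result was not tested. Slc1a2, the main astrocyte glutamate transporter, was 0.25 (SE 0.05) higher in PFC than in hippocampus.

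Of the 22 signalling and transcription factor genes, 5 were higher and 10 lower in PFC than in hippocampus, 8 and 9 than in striatum, and 11 higher and 3 lower in hippocampus than in striatum, with medians of -0.17, 0.01 and 0.16, beside 46.8%, 57% and 48% of all genes called. Mef2c, an activity-regulated factor, was at 19900 ± 1208 (SD, n = 6) in PFC, 4488 ± 637 (SD, n = 6) in hippocampus and 4372 ± 1600 (SD, n = 6) in striatum. Nos1, the nitric oxide synthase tied to the receptor by PSD-95, was lower in PFC than in hippocampus (-1.51, SE 0.08) and striatum (-1.08, SE 0.08). Ephb2, a receptor kinase that clusters GluN1, was 1.16 (SE 0.09) higher in hippocampus than in striatum, and Reln, an extracellular protein of interneurons, was lower there (-0.57, SE 0.10).

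For each of the 6 members above the filter, the 2 genes with the most similar pattern were found by the root mean square difference of centred log2 values over the 34 libraries, among 17051 genes. All 34 libraries share 3 regions, so likeness here is mostly likeness of regional levels, and it is given as a description. Grin1 was nearest to Abhd12 (0.06) and Gsk3a (0.06), against a spread of its own of 0.23. Grin2a was nearest to Arhgef25 (0.15) and Faah (0.17), against 0.95. In wild type Faah, the enzyme that degrades anandamide, measured 3847 ± 132 normalized counts (SD, n = 6) in hippocampus, 2896 ± 128 (SD, n = 6) in PFC and 853 ± 129 (SD, n = 6) in striatum. Grin2b was nearest to Prickle2 (0.09) and Camk1d (0.11), against 0.42.

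The less abundant members had other neighbours. Grin2c was nearest to Glul (0.09), the glutamine synthetase of astrocytes, and Gas2l1 (0.09), against a spread of 0.21. Grin2d was nearest to Slc6a11 (0.16), the GABA transporter GAT3, and Nap1l5 (0.17), against 0.56, and Slc6a11 was at 9344 ± 1858 (SD, n = 6) in wild-type striatum, 4080 ± 313 (SD, n = 6) in PFC and 3928 ± 202 (SD, n = 6) in hippocampus. Grin3a was nearest to Fhl1 (0.12) and Lpin1 (0.13), against 0.31.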

How the data were processed

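The labels' protocols name total RNA and a TruSeq RNA Sample Prep Kit v2. The authors deposited 1 table of gene values, a signal named as DESeq counts, called normalized counts here; it is not whole-numbered, and only 6.9% to 16.7% of low values per library lay within 0.02 of whole reads, so no count test was run. The submitters' processing notes list DESeq2 1.26.0, Salmon 1.1.0, R 3.6.2 and the build GRCm38, with no roles given. Symbols matched for 18533 of 18548 identifiers. The depth before scaling is not given.

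Values were taken as log2(value + 1), with genes of mean at least 10, and fitted with limma 3.58.1 in R 4.3.3 (trend and robust options, 2-sided, Benjamini-Hochberg over all genes tested, threshold 0.05). Genotype was fitted within each region. Regions were fitted within each genotype, and the interaction and average over all libraries, with the column code as a random block (correlation 0.0241 in wild type, 0.0503 in heterozygotes and 0.0429 overall). The code 31-67M was split by genotype. Fold means 2 to the power of the fitted difference. The Grin2a to Grin2b log2 ratio was compared by exact permutation over every assignment of the libraries to the 2 groups (numpy 2.4.6). The fits were tested on simulated data with known changes. Motif windows came from the RefSeq promoter table, which listed 4 of the 7 members.

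The members were found by gene symbol alone; the choice of this family and of all lists was made with earlier results of these data known. Named genes were the members, Myt1l, per partner list the gene with the largest difference past the threshold in each direction of each wild-type region comparison, or, for genotype, the smallest p, and the 2 genes most like each member. A gene that this rule named is not reported here. Alternatives covered the pseudocount, filter, scaling, fit options, blocks, cohorts by the first part of the code, gene length and leaving out each library. The 5 striatum libraries high in cortical markers and the libraries of code 31-67M were left out as alternatives chosen after seeing the data. Gabra6, Dao and Slc6a5 are not listed in the table.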

Additional observations from a re-analysis of the deposited data

Results flagged for a closer look

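In 48 groups and measures of the members that held 5 or 6 libraries, 2 values lay far from the rest of their group by Dixon's ratio at its 95% critical value, where chance gives about 1 in 20. Grin2c in hippocampus wild-type replicate 3 was at 1155 normalized counts, and the nearest of the other 5 libraries was at 1239. The gap was 0.63 of the group's range, against a critical value of 0.625. Grin3a in striatum wild-type replicate 5 was at 1280 normalized counts, and the next library at 1582, a gap of 0.632 of the range. That striatum library had the highest sum of cortical excitatory markers in its region, 18719, and the lowest sum of thalamus markers, 7620. Heterozygote striatum replicate 6, with Grin3a lower still at 1219, had sums of 7879 and 7622. The part of either marker list in the Grin3a level was not tested.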

How the results depend on the processing

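The number of members called was within 1.5 times the main count in all 390 settings of 13 comparisons. Of the 31 region differences of members that passed, 0 of 805 settings turned the sign and 10 lost the call, all for Grin2c between hippocampus and striatum in heterozygotes. Differences that did not pass changed sign in 54 settings. The cause was not tested.

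In PFC, heterozygote minus wild type was 0.0036 for Grin2b, -0.0076 for Grin2c and -0.0094 for Grin2d with a replicate block, with the cohort as a covariate, without codes beginning with 31 or without code 31-67M, settings that lack wild-type replicate 6 or fit it apart. Within codes beginning with 35 it was 0.0298, -0.0506 and -0.0344. In hippocampus, Grin2a was 0.0078 with equal totals, 0.0019 within 35 and 0.0282 with the replicate block. In striatum, Grin2c was -0.0213 within 35, -0.0143 without 31 and -0.0241 without 31-67M; within 35, Grin3a was 0.0642 and Grin3b 0.24. Without the 5 libraries high in cortical markers, striatum Grin2d was -0.0321. With equal totals, PFC minus hippocampus was -0.0801 for Grin2d in wild type and -0.0659 for Grin3a in heterozygotes.

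With 1 library left out at a time, genotype differences in PFC ran from -0.0833 to 0.0036 for Grin2b, -0.0076 to 0.0643 for Grin2c, -0.0343 to 0.0754 for Grin2d and -0.073 to 0.0089 for Grin3a. In hippocampus they ran from -0.0473 to 0.0486 for Grin2a and -0.0101 to 0.0507 for Grin2c. In striatum they ran from -0.0539 to 0.0099 for Grin1, -0.0997 to 0.0271 for Grin2b and -0.0652 to 0.0397 for Grin2c. Others kept their sign and moved by over 1.5 times: Grin1 in PFC from -0.024 to -0.0106, Grin2a in PFC from -0.1102 to -0.0457, Grin2b in hippocampus from 0.013 to 0.1061, Grin2d in hippocampus from -0.2223 to -0.0701, and in striatum Grin2a from -0.2285 to -0.0234, Grin2d from 0.0376 to 0.1959, Grin3a from -0.1471 to -0.0181 and Grin3b from -0.3676 to -0.0048. None of these differences passed the threshold. PFC minus hippocampus in wild type ran from -0.042 to 0.065 for Grin2d.

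The log2 ratio lost the call in 10 of 157 settings by exact permutation. Paired by code, PFC minus hippocampus was -0.22 in wild type and -0.21 in heterozygotes, PFC minus striatum 1.01 and 1.07, and hippocampus minus striatum 1.19 in heterozygotes. Paired by replicate number, the heterozygote differences were -0.23, 0.96 and 1.18. Sets of 5 pairs allow no p below 0.0625. The heterozygote libraries of PFC and hippocampus shared fewer codes than that (paired exact permutation adjusted p = 0.125). The difference of medians between PFC and striatum and between hippocampus and striatum in heterozygotes was 1.08 and 1.304. Both had an exact permutation adjusted p of 0.0519. Replicate numbers did not pair the genotypes: same-numbered libraries had correlations of deviations from -0.098 to 0.101 (median 0.015), and 3 of 16 correlated best with their own number. By transcript and coding length the Grin2b share was 66.6% by coding length in PFC, 47.9% and 64.8% in hippocampus and 48.5% and 72.4% in striatum.

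The genotype comparison called 0 genes in the main fits and as many as 2 (PFC), 6 (hippocampus) and 8 (striatum) under other settings. In hippocampus the 6 were called without codes beginning with 31, and 4 were called without the libraries of code 31-67M, which stands on both genotypes. The average over regions called 16, and other settings gave 5 to 48, with the 48 when the 3 libraries of code 31-67M were left out. None was a member.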

Other observations

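The partner lists were also read in the heterozygote region comparisons, which use other libraries than those of wild type. Scaffold genes were higher in 15 and lower in 2 of 22 between PFC and hippocampus, 18 and 2 between PFC and striatum, and 12 and 7 between hippocampus and striatum, with list medians of 0.38, 0.59 and 0.26 by limma. Of the 21 kinases and phosphatases, 6 were higher and 8 lower, 11 and 3, and 12 and 3, with medians of 0.01, 0.19 and 0.23. Of the 13 co-agonist genes tested, 2 were higher and 5 lower, 3 and 5, and 6 and 4, and of the 10 glutamate genes 2 and 4, 6 and 3, and 4 and 3. The signalling and transcription factor genes had 5 higher and 6 lower of 22, 8 and 8, and 10 and 3. The median of all genes was -0.01 in each of these comparisons, and 43.6%, 56% and 46.3% of all genes were called in either direction. The summed markers that neurons share had heterozygote medians of 211586 in PFC, 156353 in hippocampus and 123917 in striatum, and their part was not tested.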
